A study of Mus musculus with 4 samples.

Results

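The genes described here encode the matrix metalloproteinases (MMPs), most of the secreted ADAMTS proteases and the tissue inhibitors of metalloproteinases (TIMPs), measured before and after differentiation of ATDC5 cells, a mouse chondroprogenitor line. Members were all genes whose array annotation gave exactly 1 symbol made of Mmp, Adamts or Timp and a number, except Adamts2, Adamts3 and Adamts14, the ADAMTS enzymes that trim procollagens. The rule used no measured value. It found 42 of the 19938 genes measured: 22 MMPs, 16 ADAMTS proteases and 4 TIMPs. Of the 43 genes of this kind in the RefSeq gene table, Mmp15 was not analysed here.

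Total RNA of 4 samples was labelled with biotin and hybridised to whole-transcript arrays, 1 array per sample. The 2 day 0 samples were undifferentiated cells kept in DMEM/F12 with fetal bovine serum, L-glutamine, antibiotics and ascorbic acid. The 2 day 15 samples had received insulin, transferrin and selenite in this same medium for 15 days. No sample was cultured for 15 days without the supplement, so time in culture and the supplement cannot be told apart. All samples came from 1 cell line, and no label tells whether the replicates were grown apart. The spread that the p-values rest on may therefore be technical.

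MMPs and ADAMTS proteases are zinc-dependent enzymes that are made as inactive precursors and cut proteins of the extracellular matrix. Collagenases cut fibrillar collagen, gelatinases cut denatured collagen, and the aggrecanases among the ADAMTS enzymes cut the core protein of aggrecan, the proteoglycan that gives cartilage its resistance to pressure. TIMPs block these enzymes by binding their active site. In the growth plate Mmp13 is a known product of hypertrophic chondrocytes, and in joint disease Adamts4, Adamts5 and Mmp13 are the enzymes most studied for cartilage loss.

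Levels are given as log2 of the deposited intensity plus 1 after quantile normalization, and differences as day 15 minus day 0 on that scale. Levels of single genes were not compared with each other, because each gene has its own probes. The median level of all genes is used only as a rough mark of dim values. Sums over a list of genes are compared only between arrays. Before normalization the medians of the 4 arrays differed by at most 0.20 log2. Of 10 cartilage marker genes 6 rose (Hapln1, Acan, Matn1, Col2a1, Sox6 and Col11a1), and 5 of 8 measured genes of hypertrophic chondrocytes rose (Col10a1, Ibsp, Panx3, Pth1r and Mef2c). Over all genes 1.30% rose at an adjusted p below 0.05 by limma. The cartilage count was 3 (Hapln1, Acan and Matn1) without day 0 replicate 1, day 0 replicate 2 or day 15 replicate 2, and the hypertrophic count was 5 without any 1 array. Of 14 genes of macrophages and osteoclasts, 6 (Csf1r, Cd68, Itgam, C1qa, C1qb and C1qc) were at least 1 log2 higher in replicate 1 than in replicate 2 on both days, and the summed intensity of the list was 9247 and 10148 in the replicate 1 samples against 2656 and 3719 in the replicate 2 samples of day 0 and day 15. No MMP, ADAMTS or TIMP gene showed such a gap on both days. Within the macrophage and osteoclast list, Adgre1, Ptprc and Calcr went the other way, with replicate 2 higher on both days by less than 1 log2. Each of them stayed below the median level of all genes on every array, so these values may lie at background. The summed intensity weighs the brightest genes of the list most. The osteoclast genes Acp5, Calcr, Dcstamp, Oscar and Ocstamp stayed below the median level of all genes (8.72) on all 4 arrays, and none of the adipocyte, endothelial and skeletal muscle lists (6, 6 and 5 genes) held a gene that passed the test.

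Among the 42 genes, 2 ADAMTS proteases rose and none fell. Adamts16 rose 4.88-fold and Adamts10 rose 2.49-fold by limma over all genes at an adjusted p below 0.05, while the other 40 genes did not pass. The 2 called genes are 4.76% of the members, against 1.72% of all genes called. For increases the share of all genes was 1.30%, and for decreases it was 0.411%. In addition Mmp13, Adamts4 and Adamts9 differed by at least 2-fold with no overlap between the days, all toward higher values at day 15. With the 2 called genes these were 5 of 42 (11.9%), against 3.86% of all genes. Of all genes 2.74% were higher and 1.12% lower by this measure, and of the members none was lower. The day 0 values of Adamts16, Mmp13 and Adamts4 lay below the median level of all genes (8.72) and may lie at background, so their fold changes are uncertain. In bulk RNA fewer cells of a type and less RNA per cell cannot be told apart.

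The median difference over the members was 0.12 log2, and over all genes it was 0.018. In absolute size it was 0.27 log2 for the members and 0.16 for all genes. Of the members 27 had a positive and 15 a negative difference, and 34 (81.0%) differed by less than 0.5 log2, compared with 86.2% of all genes. An unadjusted p below 0.05 was found for 10 members (23.8%, against 12.2% of all genes), 8 of them higher at day 15 (7.38% of all genes) and 2 lower (4.78%). The higher ones were Adamts16, Mmp13, Adamts4, Adamts10, Adamts9, Mmp19, Mmp14 and Mmp2, and the lower ones Mmp16 and Adamts5. The days did not overlap for 28 members, against 40.1% of all genes. Of these, 19 were higher at day 15 (22.3% of all genes) and 9 lower (17.8%). On the other side, 20 of the 42 genes stayed below the median level of all genes on every array, and since no detection call was used these values may lie at background. They were Mmp1a, Mmp1b, Mmp7, Mmp8, Mmp9, Mmp10, Mmp12, Mmp17, Mmp20, Mmp21, Mmp23, Mmp24, Mmp25 and Mmp27, with Adamts8, Adamts13, Adamts15, Adamts19, Adamts20 and Timp4.

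**Figure D1:**
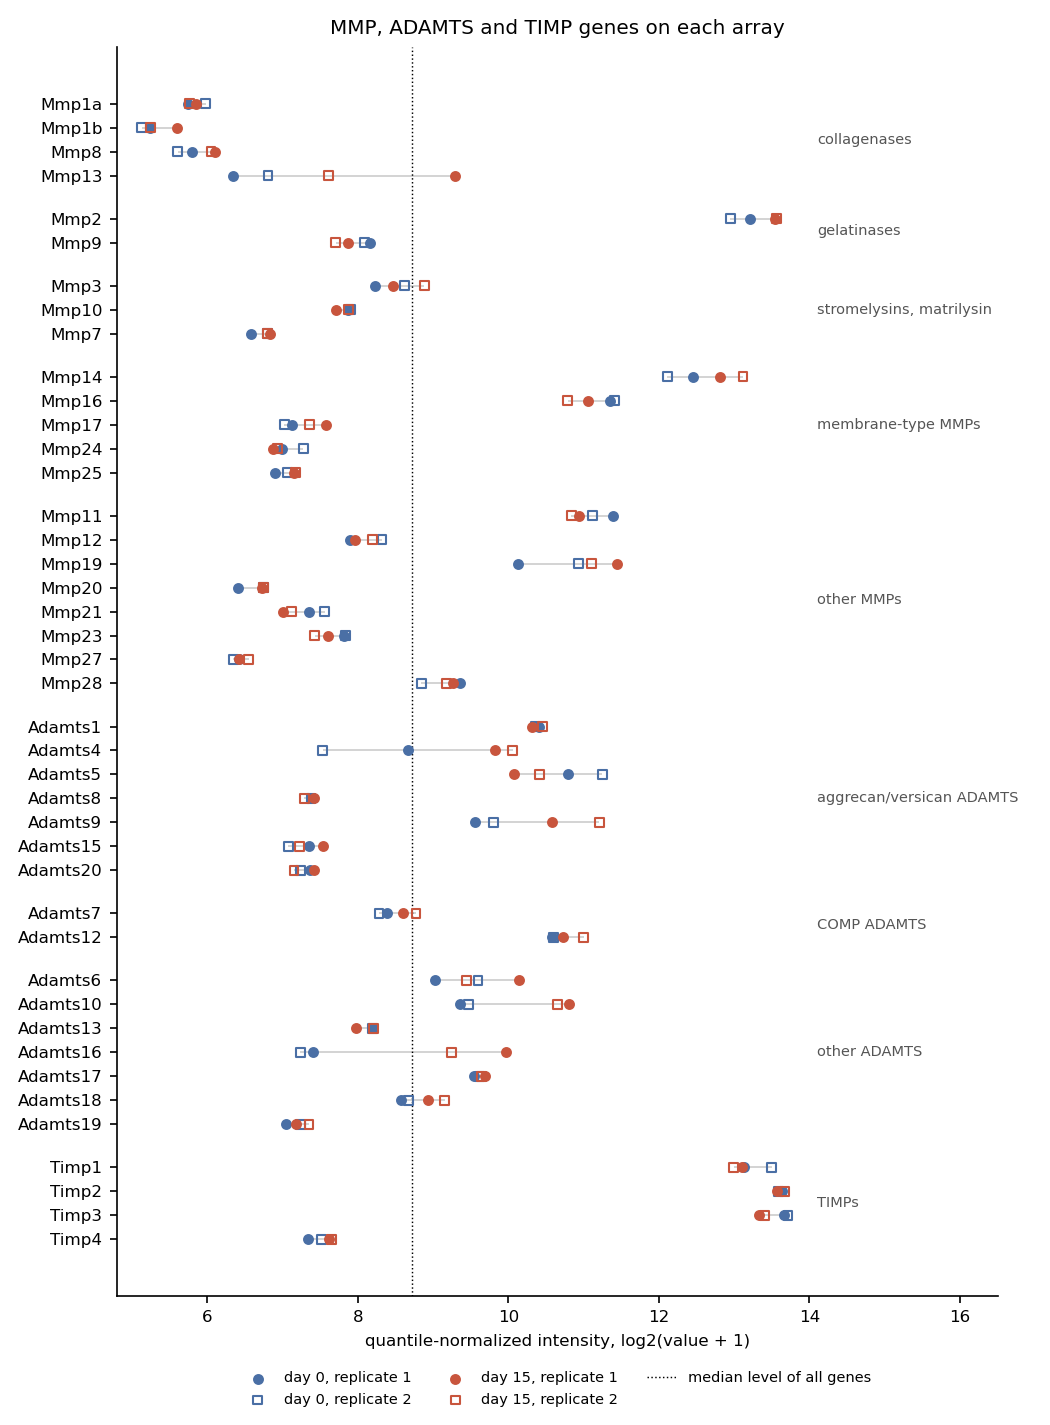
Each row is 1 gene and each point 1 array, placed by its quantile-normalized intensity as log2(value + 1). Colour marks the day and shape the replicate, and the dotted line is the median level of all genes (8.72). The widest separations of the days are those of Adamts16, Mmp13, Adamts4, Adamts10 and Adamts9, while the 4 arrays lie close together for most other genes.

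The strongest change was that of Adamts16, a secreted protease whose closest relative in the family is Adamts18. Its level (probe set 10410477) was 7.41 and 7.24 at day 0 and 9.97 and 9.24 at day 15. Both day 0 values lay below the median level of all genes (8.72) and may lie at background, so the size of the rise is uncertain. Both day 15 arrays were above both day 0 arrays, with replicate 1 the higher one at day 15 by 0.73 log2. The difference was 2.29 ± 0.27 log2 (SE; 7.32 ± 0.12 and 9.61 ± 0.52, SD, n = 2), with a limma adjusted p of 0.0218. It passed whichever 1 of the 4 arrays was left out, with differences between 1.90 and 2.66 log2. Adamts18 itself was 8.57 and 8.68 at day 0 and 8.93 and 9.15 at day 15, a difference of 0.42 ± 0.18 log2 in the same direction, short of the threshold (limma adjusted p = 0.428).

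Adamts10, which binds fibrillin microfibrils and is mutated in Weill-Marchesani syndrome, a disorder of short stature and stiff joints, had the most even replicates of the large changes. It was 9.35 and 9.47 at day 0 and 10.80 and 10.65 at day 15 (probe set 10443949). The days were far apart relative to the gaps within them, and the difference was 1.31 ± 0.17 log2 (SE; 9.41 ± 0.08 and 10.73 ± 0.11, SD, n = 2; limma adjusted p = 0.0283). Leaving out 1 array ended the call for each of the 4, at adjusted p between 0.0735 and 0.117, although the difference stayed between 1.24 and 1.40 log2. Its paralogue Adamts6 was 9.02 and 9.60 at day 0 and 10.15 and 9.45 at day 15. Here the days overlapped, because the second day 15 array lay between the day 0 arrays, and the difference of 0.49 ± 0.31 log2 did not pass (limma adjusted p = 0.675). Of the other genes in this group, which mostly have less defined substrates, Adamts13, the protease of von Willebrand factor, Adamts17 and Adamts19 differed by between -0.10 and 0.12 log2. In all 2 of the 7 genes of this group rose and none fell, against 1.30% and 0.411% of all genes, and without any 1 array Adamts16 alone of the 7 passed.

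The ADAMTS proteases known to cut aggrecan or versican had differences in both directions, and none of the 7 passed the test. Adamts4, an aggrecanase, was 8.67 and 7.53 at day 0 and 9.83 and 10.06 at day 15. The day 15 arrays were close together and both above day 0, whose arrays differed by 1.14 log2. Its difference was 1.84 ± 0.38 log2 (SE; limma adjusted p = 0.107). Without day 0 replicate 1 it was 2.39 log2 and passed (0.0111), and without day 0 replicate 2 it was 1.29 and did not (0.113).

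Adamts5, the other main aggrecanase, was 10.79 and 11.25 at day 0 and 10.07 and 10.41 at day 15, so both day 15 arrays were below both day 0 arrays. The difference was −0.78 ± 0.23 log2 (SE; limma adjusted p = 0.243). Thus the values of Adamts4 and Adamts5 pointed in opposite directions, with neither change passing the test. Adamts1, which also cuts versican and aggrecan and lies next to Adamts5 in the genome, was 10.41, 10.36, 10.32 and 10.45 on the 4 arrays, a difference of 0.00074 ± 0.16 log2 whose sign turned with median centring. Adamts8, Adamts15 and Adamts20 differed by −0.03, 0.17 and −0.02 log2, with overlapping days.

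Adamts9, a protease of versican needed for tissue remodelling in the embryo, was 9.56 and 9.80 at day 0 and 10.58 and 11.21 at day 15. All day 15 values were higher, with replicate 2 above replicate 1 on both days. The difference was 1.22 ± 0.25 log2 (SE; limma adjusted p = 0.112). It was measured by 6 probe sets, and all 6 had both day 15 arrays above both day 0 arrays, with differences between 0.48 and 1.44 log2. Replicate 2 was the higher array at day 15 in all 6 probe sets and at day 0 in 5. The 5 probe sets of Adamts17, the only other member with more than 1, differed by between 0.08 and 0.52 log2, and 3 of them did not overlap between the days. The values of probe sets of 1 gene share the samples and are not replicates.

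**Figure D2:**
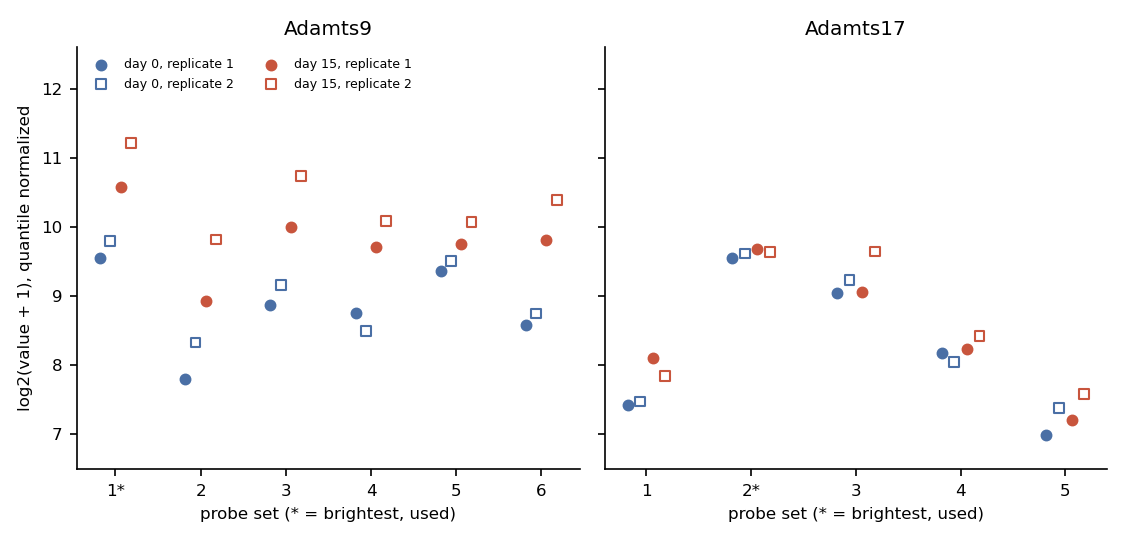
Each column is 1 probe set of Adamts9 (left) or Adamts17 (right), and each point 1 array on the scale of log2(value + 1) after quantile normalization. Colour marks the day, shape the replicate, and an asterisk the brightest probe set, which was used in the test. All 6 Adamts9 probe sets separate the days, by 0.48 to 1.44 log2, while those of Adamts17 differ by at most 0.52.

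Adamts7 and Adamts12, which cut cartilage oligomeric matrix protein (COMP), had both day 15 arrays above both day 0 arrays by small amounts. Adamts7 was 8.38 and 8.28 at day 0 and 8.60 and 8.77 at day 15, and Adamts12 was 10.58 and 10.60 and then 10.72 and 11.00. Their differences of 0.36 ± 0.17 and 0.27 ± 0.18 log2 did not pass (limma adjusted p = 0.51 and 0.698).

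Of the 4 collagenases none passed, and Mmp13 had by far the largest difference. Mmp13, collagenase-3, was 6.34 and 6.81 at day 0 and 9.29 and 7.61 at day 15 (probe set 10583044). Both day 15 arrays were above day 0, but they differed from each other by 1.68 log2, nearly as much as the days. The difference was 1.87 ± 0.54 log2 (SE; 6.57 ± 0.33 and 8.45 ± 1.19, SD, n = 2; limma adjusted p = 0.229). Without day 15 replicate 2 it was 2.71 log2 and passed (0.0269), and without day 15 replicate 1 it was 1.02 and did not (0.288). The array with the higher Mmp13 at day 15 was that with the higher summed level of the macrophage and osteoclast list, while at day 0 the array with the higher sum had the lower Mmp13, and the part of these cells in its level was not tested. Mmp8, the neutrophil collagenase, was 5.80 and 5.61 at day 0 and 6.10 and 6.05 at day 15, a difference of 0.37 ± 0.17 log2. Mmp1a and Mmp1b, the mouse counterparts of interstitial collagenase, differed by −0.05 and 0.24 log2 and, like Mmp8, stayed below the median level of all genes.

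Mmp13 stands in a cluster of neighbouring genes. In the RefSeq annotation there are 10 members that follow each other on chromosome 9, in the order Mmp13, Mmp12, Mmp1b, Mmp3, Mmp1a, Mmp10, Mmp8, Mmp27, Mmp20 and Mmp7, with no other protein-coding gene between them. Within this cluster Mmp13 was the one gene with an unadjusted p below 0.05 and the one that differed by at least 2-fold. The other 9 differed by between −0.09 and 0.37 log2. The days overlapped for 5 of the 10, and for the other 5 (50%, against 40.1% of all genes that did not overlap and 22.3% that were higher) the day 15 arrays were the higher ones.

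RefSeq promoters (GRCm38.p6), from 250 bases before to 50 bases after a gene's start, were found for 28 of the 42 members (31 promoters, matched by gene identifier). None was found for 14 members, among them the 2 called genes, Adamts16 and Adamts10, and Adamts4. Promoters are shown for Mmp13, whose days did not overlap but which was not called. They are also shown for its cluster neighbours Mmp3 and Mmp10, whose days overlapped. Adamts9, a gene outside the cluster, had separate days and was not called either. Capitals mark matches on either strand to the letters TGANTCA of AP-1 (the Fos and Jun family), TGTGGT of RUNX factors and TATAAA of the TATA box. The 4 promoters lie at chr9:7272264-7272563 on the plus strand (Mmp13), chr9:7445572-7445871 on the plus strand (Mmp3), chr9:7502092-7502391 on the plus strand (Mmp10) and chr6:92943485-92943784 on the minus strand (Adamts9).
Mmp13: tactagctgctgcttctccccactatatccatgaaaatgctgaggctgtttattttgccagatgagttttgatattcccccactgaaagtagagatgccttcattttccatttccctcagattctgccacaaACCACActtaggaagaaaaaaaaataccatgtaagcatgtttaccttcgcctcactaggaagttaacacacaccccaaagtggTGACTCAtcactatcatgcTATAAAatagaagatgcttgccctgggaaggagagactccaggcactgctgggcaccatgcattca
Mmp3: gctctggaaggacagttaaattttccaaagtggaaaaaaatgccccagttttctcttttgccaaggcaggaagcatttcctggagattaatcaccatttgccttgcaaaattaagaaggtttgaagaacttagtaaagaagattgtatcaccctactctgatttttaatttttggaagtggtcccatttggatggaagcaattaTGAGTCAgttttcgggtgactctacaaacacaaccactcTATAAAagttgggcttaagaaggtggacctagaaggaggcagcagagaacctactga
Mmp10: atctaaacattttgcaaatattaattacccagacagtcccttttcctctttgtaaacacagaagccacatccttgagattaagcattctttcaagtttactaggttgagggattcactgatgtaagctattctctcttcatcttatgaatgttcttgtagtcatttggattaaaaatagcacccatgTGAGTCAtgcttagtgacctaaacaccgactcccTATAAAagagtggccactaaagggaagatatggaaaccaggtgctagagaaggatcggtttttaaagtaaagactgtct
Adamts9: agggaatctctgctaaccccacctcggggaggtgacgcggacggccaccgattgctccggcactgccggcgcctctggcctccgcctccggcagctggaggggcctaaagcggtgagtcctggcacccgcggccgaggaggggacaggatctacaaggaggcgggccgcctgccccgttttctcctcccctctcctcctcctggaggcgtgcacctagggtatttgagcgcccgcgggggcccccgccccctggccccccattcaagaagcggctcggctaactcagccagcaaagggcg

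Most of the cluster promoters shared sequence features that the rule did not use. An AP-1 match was found in 8 of the 31 member promoters (25.8%), against 7.81% of all 32851 promoters of this length, and all 8 belonged to genes of the chromosome 9 cluster: Mmp13, Mmp12, Mmp1a, Mmp1b, Mmp3, Mmp10, Mmp20 and Mmp7. The same 8 promoters also held a TATA box match, a combination present in 1.54% of all promoters. In the cluster, the promoter of Mmp8 held a TATA box match without AP-1, and that of Mmp27 held neither. A further promoter of Mmp12 and a further promoter of Mmp7 also held neither. In the Mmp13 promoter the AP-1 match began 35 bases before the start, the TATA box match 16 bases and a RUNX match 118 bases before it. The AP-1 match of Mmp10 began 63 bases and that of Mmp3 46 bases before the start, with the TATA box match between it and the start in both. The RUNX letters were found in 6 member promoters (19.4%, against 16.8% of all), which included Mmp13 and Mmp14. The letters ACAAAG of SOX factors were in 8 (25.8%, against 18.7%) and AGGAAG of ETS factors in 16 (51.6%, against 35.4%), both searched on both strands. No match of 1 motif overlapped that of another. Genes with AP-1 and TATA box matches had differences from −0.09 to 1.87 log2. Genes of the cluster are related by descent and are not independent of each other. The Adamts9 window held no AP-1, RUNX or TATA box match.

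The gelatinases had small differences in opposite directions, but Mmp9 stayed below the median level of all genes on every array. Mmp2, gelatinase A, was 13.21 and 12.95 at day 0 and 13.54 and 13.56 at day 15, a difference of 0.48 ± 0.18 log2 with no call (limma adjusted p = 0.361). Mmp9, gelatinase B, a product of osteoclasts and macrophages, was 8.16 and 8.09 at day 0 and 7.88 and 7.71 at day 15, so both day 15 arrays were lower, with a difference of −0.33 ± 0.17 log2 (limma adjusted p = 0.542). Mmp12, the macrophage elastase, was 7.89 and 8.32 at day 0 and 7.96 and 8.20 at day 15, with the replicate 2 arrays higher on both days. Of the macrophage and osteoclast list Adgre1, Ptprc and Calcr were also higher in replicate 2 on both days, unlike the 6 genes named above. Mmp12, Adgre1, Ptprc and Calcr all stayed below the median level of all genes on every array.

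Mmp14, the membrane-type enzyme that activates the precursor of Mmp2 at the cell surface with the help of Timp2, was 12.46 and 12.11 at day 0 and 12.81 and 13.12 at day 15. Both day 15 arrays were higher, by 0.68 ± 0.21 log2 (SE) on average, which missed the threshold (limma adjusted p = 0.259). Mmp16, a further membrane-type enzyme, was 11.35 and 11.41 at day 0 and 11.06 and 10.79 at day 15. It was lower on both day 15 arrays, with a difference of −0.45 ± 0.18 log2 that was not called (limma adjusted p = 0.391). Of the other membrane-type genes Mmp17 differed by 0.40, Mmp25 by 0.17 and Mmp24 by −0.23 log2, all below the median level of all genes. For these 5 genes the days did not overlap, with 3 higher and 2 lower at day 15, where 40.1% of all genes did not overlap (22.3% higher, 17.8% lower).

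Among the remaining MMPs Mmp19, an enzyme that cuts basement membrane proteins, had the largest difference. It was 10.13 and 10.93 at day 0 and 11.45 and 11.11 at day 15. The day 15 arrays were higher, but the day 0 arrays differed from each other by 0.80 log2, and the difference of 0.75 ± 0.30 log2 did not pass (limma adjusted p = 0.403). Mmp11, stromelysin-3, was 11.39 and 11.12 at day 0 and 10.93 and 10.84 at day 15, a difference of −0.37 ± 0.18 log2 (limma adjusted p = 0.519). Mmp3, stromelysin-1, was 8.23 and 8.62 at day 0 and 8.47 and 8.89 at day 15. Its days overlapped and replicate 2 was the higher one on both (0.26 ± 0.23 log2; limma adjusted p = 0.812). Mmp10, stromelysin-2, and Mmp7, matrilysin, differed by −0.09 and 0.13 log2. Mmp20, the enamel protease, Mmp21, Mmp23, Mmp27 and Mmp28, an enzyme of epithelia, differed by between −0.39 and 0.15 log2.

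**Figure D3:**
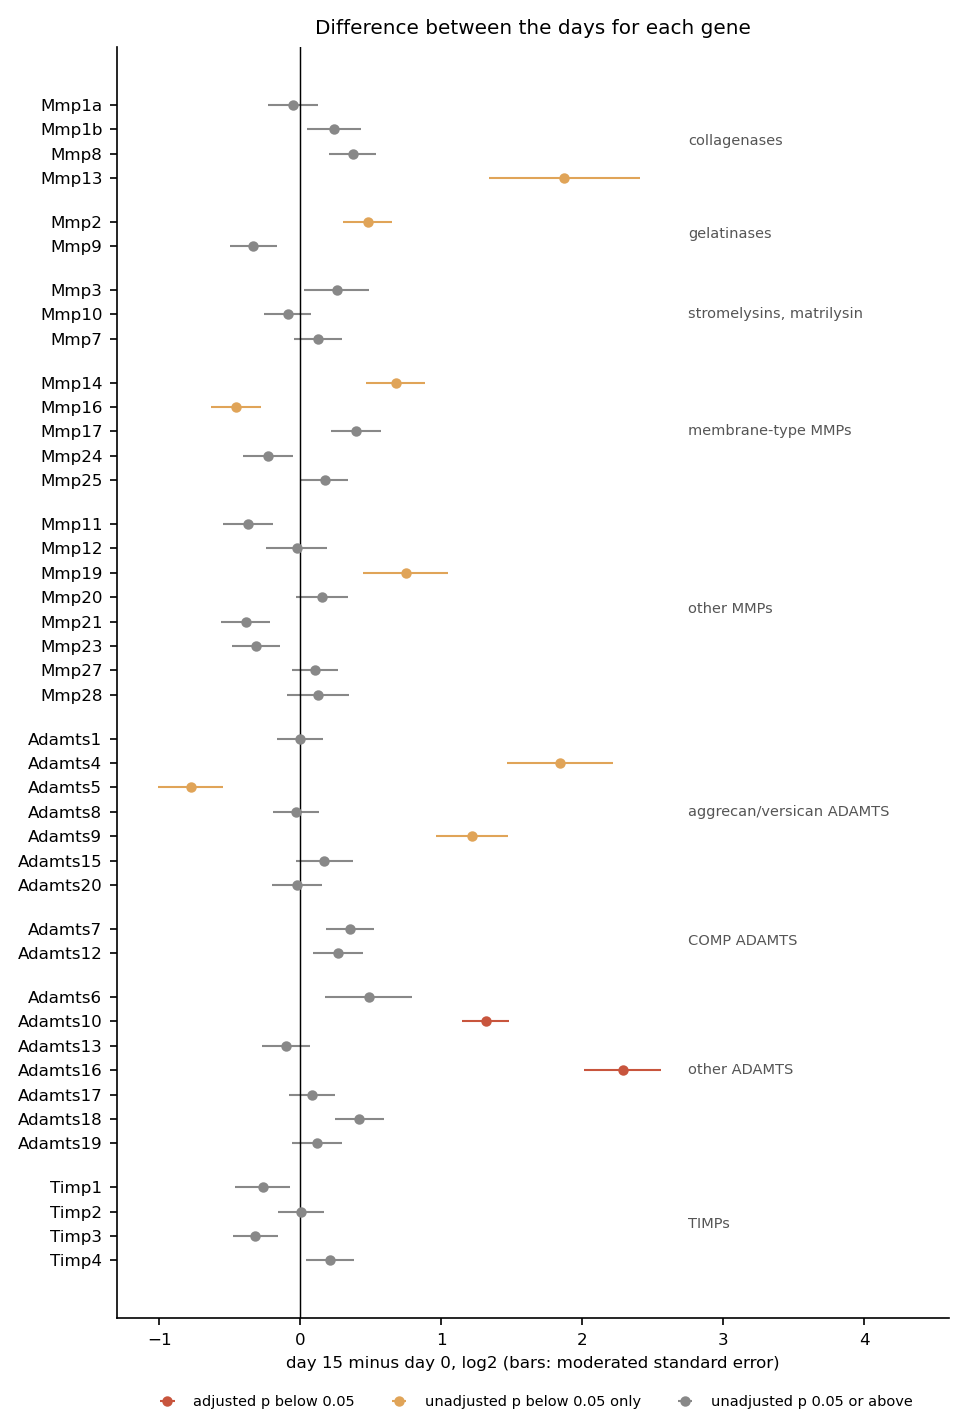
Each row is 1 gene, with the point at its day 15 minus day 0 difference in log2 and the bar its moderated standard error (n = 2 arrays per day). Adamts16 (2.29) and Adamts10 (1.31) passed at an adjusted p below 0.05, 8 further genes had only an unadjusted p below 0.05, and the TIMPs lie between −0.32 and 0.21.

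None of the 4 inhibitors of the TIMP family passed, and none differed by more than 0.32 log2. Timp1, the inhibitor induced by growth factors and cytokines, was 13.13 and 13.50 at day 0 and 13.10 and 12.99 at day 15, with a difference of −0.27 ± 0.20 log2 (SE; limma adjusted p = 0.746). Timp2 was 13.63, 13.59, 13.57 and 13.67 on the 4 arrays, and its difference of 0.0075 ± 0.16 log2 turned sign on the deposited scaling and with median centring. Timp3, the inhibitor that binds to the matrix and also blocks the aggrecanases, was 13.66 and 13.72 at day 0 and 13.33 and 13.40 at day 15. The gaps within its days were below 0.1 log2, and both day 15 arrays were lower, with a difference of −0.32 ± 0.16 log2 that missed the threshold (limma adjusted p = 0.542). Timp4 was 7.33 and 7.52 at day 0 and 7.62 and 7.65 at day 15 (0.21 ± 0.17 log2; limma adjusted p = 0.774).

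Of 22 measured genes of matrix proteins that these enzymes cut 6 rose (27.3%, against 1.30% of all genes). None fell, against 0.411% of all genes, and the median difference of the list was 0.77 log2. Acan, Col2a1, Col11a1 and Col10a1 were also among the marker genes counted above. The proteoglycans aggrecan and versican both rose, Acan by 3.53 ± 0.43 log2 (SE; limma adjusted p = 0.0233) and Vcan by 2.32 ± 0.35 (limma adjusted p = 0.0444). Fmod, the collagen-binding fibromodulin, rose by 3.63 ± 0.39 log2 and Col10a1, the collagen typical of hypertrophic cartilage, by 3.91 ± 0.25 (limma adjusted p = 0.0163 and 0.00326). Col2a1 and Col11a1, chains of the cartilage fibril, were the other 2 that rose. Without day 15 replicate 2 the count was 2 (Acan and Col10a1), and without day 15 replicate 1 it was 5, with Vcan lost. Without either day 0 array it was again 6, but Col2a1 and Col11a1 were lost while Lum and Dcn passed; Acan and Col10a1 passed in all 11 alternatives. Comp, the substrate of Adamts7 and Adamts12, was 7.65 and 7.70 at day 0 and 8.36 and 8.66 at day 15, short of the threshold (limma adjusted p = 0.125). Vwf, the substrate of Adamts13, differed by 0.020 log2. Whether substrates and enzymes differ in their share of calls was not tested.

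**Figure D4:**
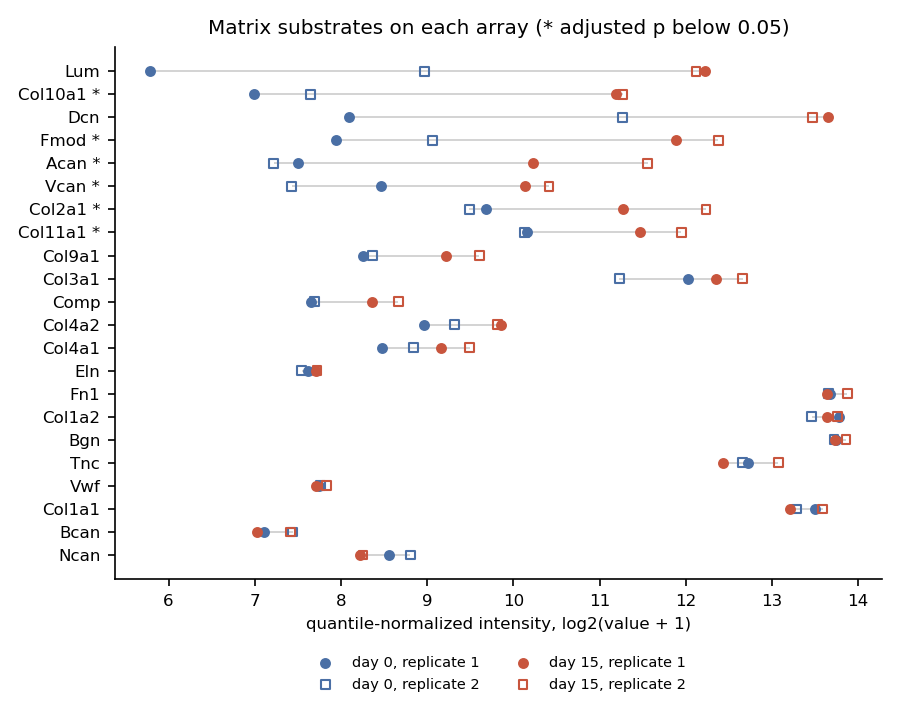
Each row is 1 of 22 genes of matrix proteins cut by these enzymes, and each point 1 array as log2(value + 1) after quantile normalization, coloured by day and shaped by replicate. The rows are ordered by the difference between the days, and asterisks mark the 6 genes that rose at an adjusted p below 0.05. Lum and Dcn have large differences without a call, and their day 0 arrays lie more than 1 log2 apart, as do those of the called genes Fmod and Vcan.

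Among 22 measured activators and other inhibitors 1 gene fell and none rose (4.55% called, against 1.72% of all genes). Plaur, the urokinase receptor that focuses plasmin formation on the cell surface, was 10.91 and 11.56 at day 0 and 8.98 and 9.15 at day 15. It fell by 2.17 on the log2 scale (limma adjusted p = 0.0203). It no longer passed without day 15 replicate 1 (0.0892) or day 15 replicate 2 (0.0627). Pcsk6, a proprotein convertase that can activate ADAMTS precursors, was 9.37 and 10.10 at day 0 and 11.19 and 11.67 at day 15, a difference of 1.69 ± 0.30 log2 (SE) that missed the threshold (limma adjusted p = 0.0713) but passed under 5 of 11 alternatives, at 0.0113 to 0.046. Reck, a membrane-anchored inhibitor of several MMPs, was 9.95 and 10.40 at day 0 and 11.41 and 11.25 at day 15, and this difference of 1.15 ± 0.21 log2 did not pass either (limma adjusted p = 0.0801).

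Of 19 measured relatives, the ADAM proteases, the procollagen ADAMTS enzymes, the ADAMTS-like proteins and the tolloid proteases, 1 fell and none rose. This was 5.26% of the list, against 1.72% of all genes called. Adamtsl3, an ADAMTS-like matrix protein without a protease domain, was 11.76 and 11.65 at day 0 and 10.17 and 10.52 at day 15. It fell by 1.36 on the log2 scale (limma adjusted p = 0.0345), a call that was lost without any 1 of the 4 arrays (0.0585 to 0.122). Adamtsl4 differed by −0.82 ± 0.24 log2 and did not pass (limma adjusted p = 0.241). Among 12 other matrix proteases Mme, the membrane metallopeptidase neprilysin, was 9.38 and 9.74 at day 0 and 12.98 and 12.90 at day 15 and rose by 3.38 ± 0.19 log2 (limma adjusted p = 0.00294). None of the other 11 passed, so 8.33% of this list was called, against 1.72% of all genes. Fap, fibroblast activation protein, differed by 1.26 ± 0.37 log2 (limma adjusted p = 0.241).

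Of 26 measured transcription factors and signalling genes known to act on MMP and ADAMTS genes 1 rose and 1 fell. Together these were 7.69% of the list, against 1.72% of all genes called. Mef2c, a factor of chondrocyte hypertrophy, rose by 2.69 ± 0.18 log2 (limma adjusted p = 0.00361). Fosl1, the AP-1 subunit Fra-1, was 11.48 and 12.38 at day 0 and 8.84 and 8.97 at day 15 and fell by 3.02 on the log2 scale (limma adjusted p = 0.0141). Its call was lost without day 15 replicate 1 (0.0616) or day 15 replicate 2 (0.0512). Fos, another AP-1 subunit, was 10.78 and 7.99 at day 0 and 11.89 and 11.64 at day 15, which missed the threshold (limma adjusted p = 0.333). Of the other AP-1 genes on the list Fosl2 differed by −0.65 log2, and Fosb, Jun, Junb and Jund by 0.10 to 0.46 log2. None of these passed. The cytokines Il1b, Il6 and Tnf, which induce several of the proteases in cartilage, did not pass and stayed below the median level of all genes on every array. Runx2 was not analysed here.

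**Figure D5:**
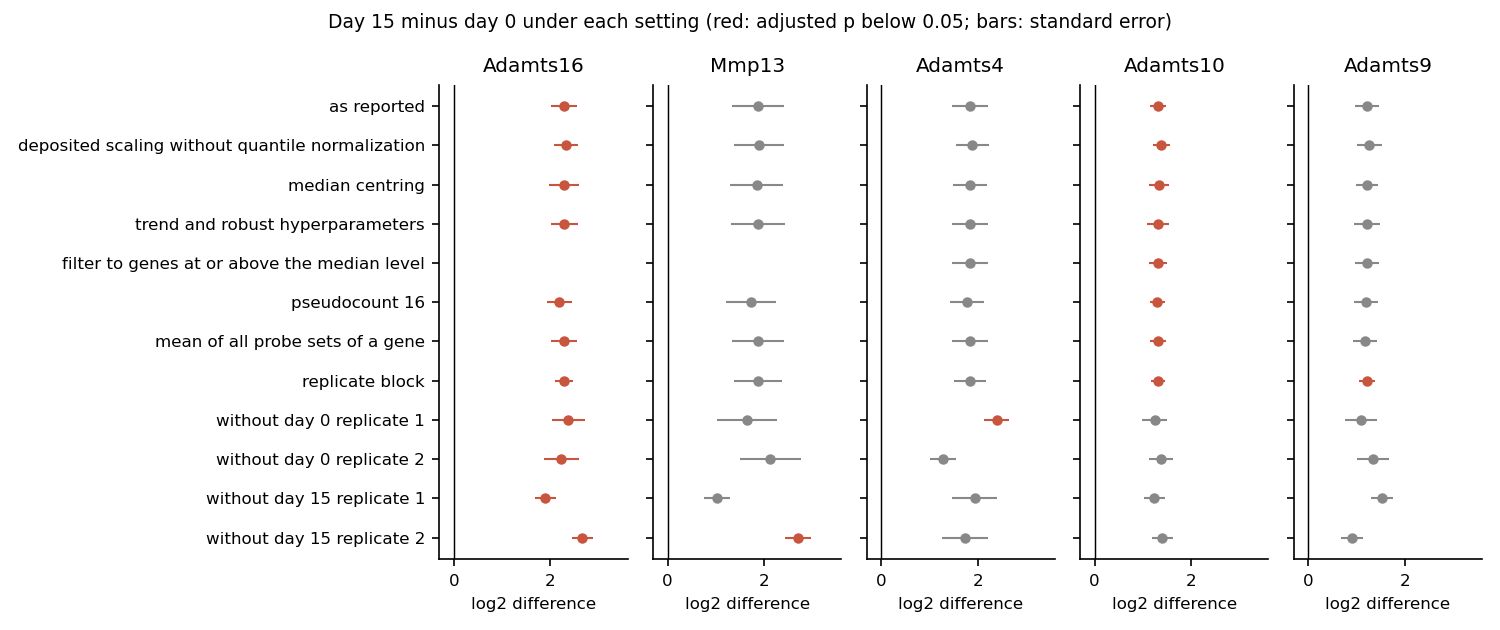
Each panel is 1 of the 5 genes that differed by at least 2-fold without overlap, and each row a setting of the analysis, with the point at the day 15 minus day 0 difference in log2 and the bar its standard error. Red points have an adjusted p below 0.05. Adamts16 is red in every row where it was tested, Adamts10 in all but those that leave out 1 array, and Mmp13, Adamts4 and Adamts9 in 1 row each; Adamts16 and Mmp13 have no point under the filter on low levels.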

How the data were processed

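RNA of 4 ATDC5 samples was measured on 1-colour arrays. The authors deposited 1 linear processed intensity per probe set and sample; how background, summarization and normalization were handled is not given in the sources used here. The build is mm9, per the submitters' processing notes, so gene coordinates of the GRCm38.p6 table are not printed except with promoters. Of 35512 probe sets 21789 had 1 symbol, 1621 several and 12102 none; the gene identifiers of 21698 were found in the table. The brightest probe set per gene over all 4 arrays was used. Values were turned to log2 after adding 1 and quantile normalized over all probe sets. The days were tested against each other by lmFit and eBayes of limma 3.58.1 (R 4.3.3; group as the only term, all 4 arrays), with Benjamini-Hochberg adjustment over 19938 genes and calls below 0.05. Array number limits the precision. Promoters were searched in Python 3.11.15, and plots made by matplotlib 3.10.9.

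Members and lists were chosen with earlier results of these data known. Named by rule were all members and, from each related list, up to 3 called genes with the largest difference, or, with fewer than 2 calls, the 2 genes that differed most. Vcan, Col2a1, Col11a1, Comp, Vwf, Lum, Dcn, Reck, Fos, Fosb, Fosl2, Jun, Junb, Jund, Il1b, Il6 and Tnf and the marker genes were named after their values were seen. The same holds for the array values of Mmp8, Mmp11, Mmp12, Adamts7, Adamts12 and Adamts18. Alternatives were the deposited scaling, median centring, limma's trend and robust options, dropping genes below the median level, a pseudocount of 16, the mean of all probe sets, the replicate number as a block and leaving out each array before scaling, which assumes that the remaining sample of a day varies as the pair does.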

Additional observations from a re-analysis of the deposited data

How the results depend on the processing

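Under 11 alternatives 32 of the 42 genes kept the direction of their difference, among them all 10 with an unadjusted p below 0.05. The number of members called higher was 2, and it was 1 (Adamts10) when genes below the median level were dropped, a filter that 18 members passed and which left out Adamts16 and Mmp13; it ranged from 1 to 2 without 1 array, where Adamts16 passed each time, Adamts10 never, Adamts4 without day 0 replicate 1 and Mmp13 without day 15 replicate 2. No member was called lower in any of these fits. The number that did not overlap and differed by at least 2-fold was 5, or 3 with that filter, where Adamts16 and Mmp13 were not tested. Without 1 array it was 4 to 6. The number with an unadjusted p below 0.05 was 10, and 6 to 8 without 1 array. With the replicate number as a block 3 members were called higher, Adamts9 (adjusted p = 0.0306) joining Adamts16 and Adamts10, while 628 of all genes were called in place of 342. Samples with the same number deviated together across genes (correlation 0.403 over all genes, −0.155 over the members). There are only 2 pairs and no label ties them, and what samples with the same number share was not tested.

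On the deposited scaling Mmp12 was 0.036 and Timp2 −0.0086 log2, and with median centring Mmp27 was −0.019, Adamts1 −0.0023 and Timp2 −0.053. Without 1 array the ranges that crossed 0 were −0.17 to 0.07 log2 for Mmp1a, −0.24 to 0.19 for Mmp12, −0.016 to 0.33 for Mmp20, −0.13 to 0.37 for Mmp28, −0.067 to 0.067 for Adamts1, −0.095 to 0.035 for Adamts8, −0.15 to 0.10 for Adamts20, −0.21 to 0.013 for Adamts13 and −0.041 to 0.055 for Timp2. The scalings moved the median of all genes by less than 0.1 log2. The causes of these changes were not tested, and without detection calls which dim values lie above background was not tested.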

Other observations

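For 21 of the 42 genes the larger gap between the 2 arrays of a day exceeded the difference between the days. Over all genes the share was larger (14250 of 19938). The largest gaps among the members were those of Mmp13 at day 15 (1.68 log2, replicate 1 higher) and Adamts4 at day 0 (1.14, replicate 1 higher), followed by Mmp19 at day 0 (replicate 2 higher by 0.80) and Adamts16 at day 15 (0.73). Ctss, cathepsin S, a protease of macrophages on the list of other matrix proteases, was 10.28 and 9.90 in the replicate 1 samples of day 0 and day 15 and 5.85 and 5.87 in the replicate 2 samples. On both days replicate 1 exceeded replicate 2 by 1 log2 or more for 68 of all genes, and the reverse held for 40, with none of the 42 among either. Ctsk, cathepsin K, the collagen-cutting protease of osteoclasts, stayed between 6.42 and 6.87 on the 4 arrays.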
